A study of Mus musculus with 6 samples.

Results

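The cavin and caveolin genes encode the proteins that build caveolae, and 7 of them were followed in peritoneal macrophages (PMs) of lupus-prone mice: Cavin1, Cavin2, Cavin3, Cav1, Cav2, Ehd2 and Pacsin2. They are 7 of the 32879 genes to which the counts could be assigned. The family was chosen by the counts of Cavin1 in these same libraries, which were far higher in diseased mice, and the question was whether the other 6 genes share that difference. The values of Cavin1 are therefore given as a description, without a test.

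A library was sequenced from the PMs of each mouse, for 3 mice in the control group and 3 in the diseased-BWF1 group. All mice were female and the cells were sorted by flow cytometry, with F4/80+ and CD11b high among the criteria. Controls came from a cross of NZW with BALB/c that is not susceptible to lupus (first generation, F1), at ages of 33, 33 and 30 weeks. Diseased-BWF1 mice came from the F1 cross of NZB with NZW, at ages of 31, 31 and 34 weeks. BWF1 mice develop a spontaneous lupus-like disease, and those called diseased had high titers of anti-dsDNA antibodies and severe proteinuria. Both groups carry the same H2 haplotype. One parent of the cross differs between them (NZB or BALB/c), and the effects of that strain and of the disease on any gene cannot be told apart.

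Caveolae are small flask-shaped pits of the plasma membrane that serve in membrane buffering, lipid handling and signaling. Caveolins are inserted into the inner leaflet of the membrane and form the scaffold of the pit, while cavins are soluble proteins that assemble on the scaffold as an outer coat. Caveolae are abundant in endothelial cells, adipocytes and smooth muscle, and most leukocytes carry few of them. Cavin1, also named Ptrf, was first described as a factor that releases RNA polymerase I and its transcript, and it is needed for caveolae to form.

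The libraries held 3629901 to 5003360 counts per mouse, of which 89.1% to 93.0% fell on genes. At this depth 3 counts correspond to 0.652 to 0.888 CPM, here the counts scaled to the same total on genes in each library. An abundance under that floor could not be told from 0. The floors, the intervals of the cavin shares and the interval of the summed Cavin3 counts cover counting error only. Intervals of the fitted log2 fold changes also include the spread between mice. The markers of the sort were present, with 7000 to 9781 counts of Adgre1, which encodes F4/80, in each library and 18129 to 32430 of Itgam, which encodes CD11b. The peritoneal macrophage factor Gata6 had 260 to 450 counts in each library. In bulk RNA, fewer cells that express a gene and less RNA of that gene per cell cannot be told apart.

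Among the cavins, Cavin1 was low in control PMs and many times higher in diseased PMs. The libraries of control mice 1, 2 and 3 held 27, 33 and 28 counts of Cavin1, and those of diseased-BWF1 mice 1, 2 and 3 held 620, 727 and 487. Scaled by DESeq2 size factors, these were 22.3, 33.9 and 32.2 normalized counts in controls and 585, 736 and 491 in diseased mice. The lowest diseased mouse was thus far above the highest control, and the 3 mice of a group lay close together relative to the gap. The group means were 29.5 ± 6.25 (SD, n = 3) and 604 ± 124 (SD, n = 3) normalized counts. The fitted log2 fold change was 4.36 with a standard error (SE) of 0.24, a 20.6-fold difference. By log2 fold change Cavin1 ranked 9 from the top among the 10505 genes that passed a filter on low counts. Its counts came from a single RefSeq transcript record, so they were not divided among isoforms, and 0 of the 3513 windows of 75 bases in its transcripts occur in a transcript of another gene. The log2 fold change lay between 4.18 and 4.49 over 13 alternative ways of processing, each single mouse left out included.

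Cavin3, also named Prkcdbp, is a cavin that binds Cavin1 and protein kinase C delta. Its counts were low and lay the other way. The control libraries held 12, 9 and 8 counts, and the diseased libraries held 1, 3 and 2. All 3 control mice were above all 3 diseased mice, and the diseased values lay at or under the floor of 3 counts. The normalized counts were 9.46 ± 0.409 (SD, n = 3) in controls and 2.00 ± 1.05 (SD, n = 3) in diseased mice. Cavin3 did not pass the filter on low counts. In the fit without that filter its log2 fold change was -2.21 with an SE of 0.63, and the adjusted p was 0.154 by edgeR's quasi-likelihood test, Benjamini-Hochberg adjusted. That fit called 1.31% of 19833 genes for a fold change of 1.5 or more with an adjusted p below 0.05. DESeq2, which called 2.91% of the genes it tested, gave Cavin3 a log2 fold change of -2.25 and an adjusted p of 0.291. The exact two-sided permutation test gave p = 0.1, the smallest value that 3 mice against 3 can give. Of the genes that passed the filter, 11.2% had all diseased mice below all controls. That share was not taken for genes below the filter, such as Cavin3. Summed over mice and scaled to the depth of each group, the control level was 4.68 times the diseased level, with a 95% interval of 1.91 to 13.8 for counting error. The difference in Cavin3 therefore exceeded counting error but did not pass the test across genes.

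Cavin2, also named Sdpr, is a cavin that helps to bend the membrane. It had 0, 1 and 1 counts in controls and 0 in each of the 3 diseased libraries, all under the floor, so no fold change is given. Cavin4, the cavin of muscle, had 0 counts in all 6 libraries. Cavin1 made up 69.2%, 76.7% and 75.7% of the cavin counts in the control libraries, with exact 95% binomial intervals that together span 52.4% to 88.2%. In the diseased libraries its share was 99.8%, 99.6% and 99.6%, with intervals that all lie above 98.5%. Per transcript length, Cavin1 exceeded Cavin3 1.07-, 1.75- and 1.67-fold in the control mice, and 295-, 115- and 116-fold in the diseased mice, where the divisor rested on 1 to 3 counts. These shares and ratios largely restate the Cavin1 difference that selected the family. They are given as a description, and the gap between their intervals is not a test.

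**Figure D1:**
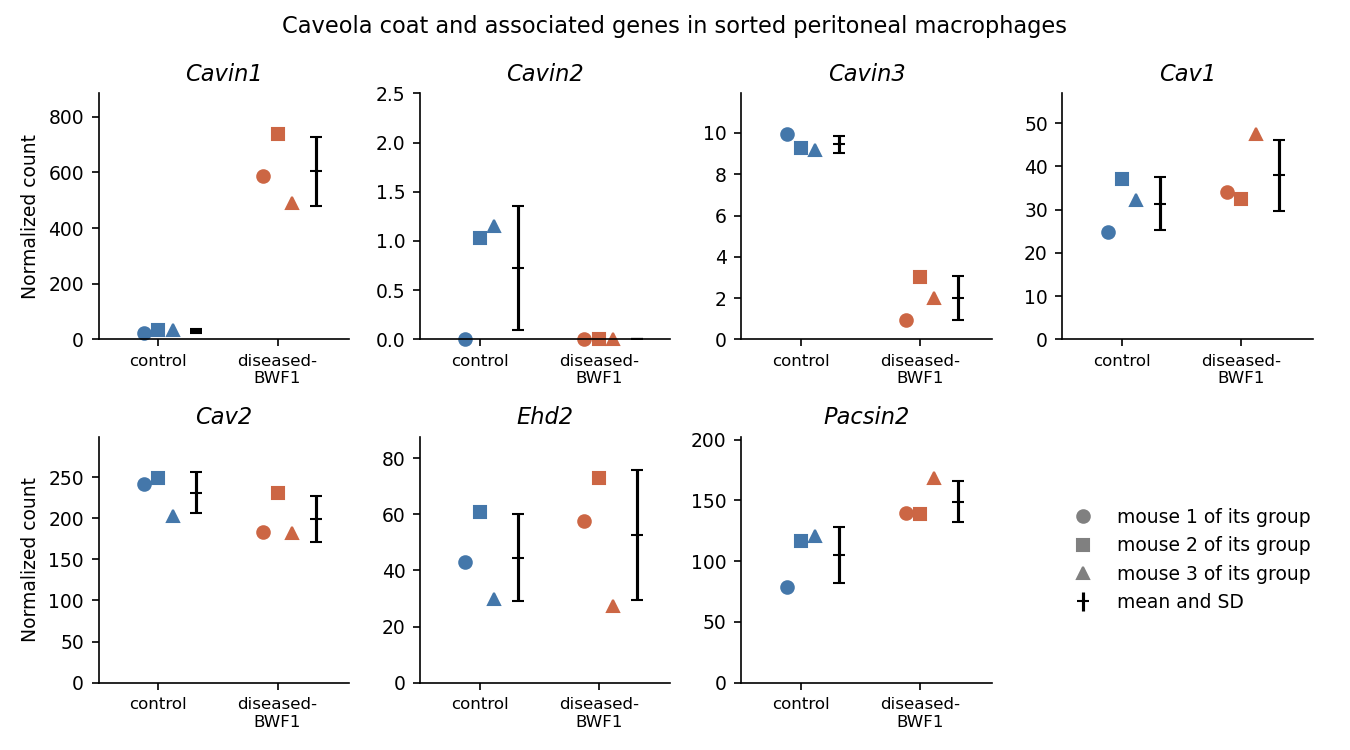
Normalized counts (deposited counts divided by DESeq2 size factors) of the 7 genes, 1 panel per gene with its own axis from 0, 1 point per mouse, with the group mean and SD (n = 3) beside the points. The diseased-BWF1 points of Cavin1 lie between 491 and 736 and its control points between 22.3 and 33.9. Cavin3 lies the other way at under 10 normalized counts, and the points of Cav1, Cav2 and Ehd2 overlap between groups.

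The caveolins did not follow Cavin1. Cav1 encodes the caveolin that most caveolae require. It had 30, 36 and 28 counts in control mice and 36, 32 and 47 in diseased mice. These values overlapped, since diseased mice 1 and 2 lay within the range of the controls on the normalized scale. The normalized counts were 31.3 ± 6.15 (SD, n = 3) in controls and 37.9 ± 8.24 (SD, n = 3) in diseased mice. The log2 fold change of Cav1 was 0.28 with an SE of 0.26, a 95% interval of -0.34 to 0.89 and an adjusted p of 0.712 by edgeR's quasi-likelihood test, Benjamini-Hochberg adjusted. The exact permutation test gave p = 0.4. The upper end of the interval lies far under the log2 fold change of Cavin1.

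Cav2 encodes the caveolin that pairs with Cav1, whose product it needs to reach the cell surface. Its gene lies beside Cav1 on mouse chromosome 6, and it was the most abundant of the 7 genes per length in control PMs. The control libraries held 292, 242 and 177 counts and the diseased libraries 194, 228 and 180. The normalized counts were 231 ± 24.5 (SD, n = 3) in controls and 199 ± 28.0 (SD, n = 3) in diseased mice, and the groups overlapped. In the fit Cav2 had a log2 fold change of -0.22 with an SE of 0.15 and a 95% interval of -0.58 to 0.13, and its adjusted p was 0.586 by edgeR's quasi-likelihood test, Benjamini-Hochberg adjusted. The exact permutation test gave p = 0.2. Cav3, the caveolin of muscle, had 0 counts in all 6 libraries.

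Ehd2 encodes an ATPase that sits at the neck of the caveola and holds it at the membrane. The control libraries held 52, 59 and 26 counts and the diseased libraries 61, 72 and 27. The spread within each group was wide, with mouse 3 the lowest of its group in both, and the groups overlapped. The normalized counts were 44.5 ± 15.5 (SD, n = 3) and 52.6 ± 23.3 (SD, n = 3). For Ehd2 the log2 fold change was 0.24 with an SE of 0.40 and a 95% interval of -0.71 to 1.18, and its adjusted p was 0.848 by edgeR's quasi-likelihood test, Benjamini-Hochberg adjusted. The exact permutation test gave p = 0.8. Without diseased mouse 2 the log2 fold change was -0.06, so its sign rested on that mouse.

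Pacsin2 encodes an F-BAR protein that shapes the caveola neck and also takes part in endocytosis elsewhere. The control libraries held 95, 113 and 105 counts and the diseased libraries 148, 137 and 167. Every diseased mouse lay above every control, with 105 ± 23.1 (SD, n = 3) normalized counts in controls and 149 ± 16.9 (SD, n = 3) in diseased mice. Pacsin2 had a log2 fold change of 0.50 with an SE of 0.20 and a 95% interval of 0.04 to 0.97. The adjusted p was 0.339 by edgeR's quasi-likelihood test, Benjamini-Hochberg adjusted, and the exact permutation test gave p = 0.1. The difference therefore did not pass the test across genes, and groups that do not overlap, higher in diseased mice, were found for 9.59% of the tested genes and, lower in diseased mice, for 11.2%.

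**Figure D2:**
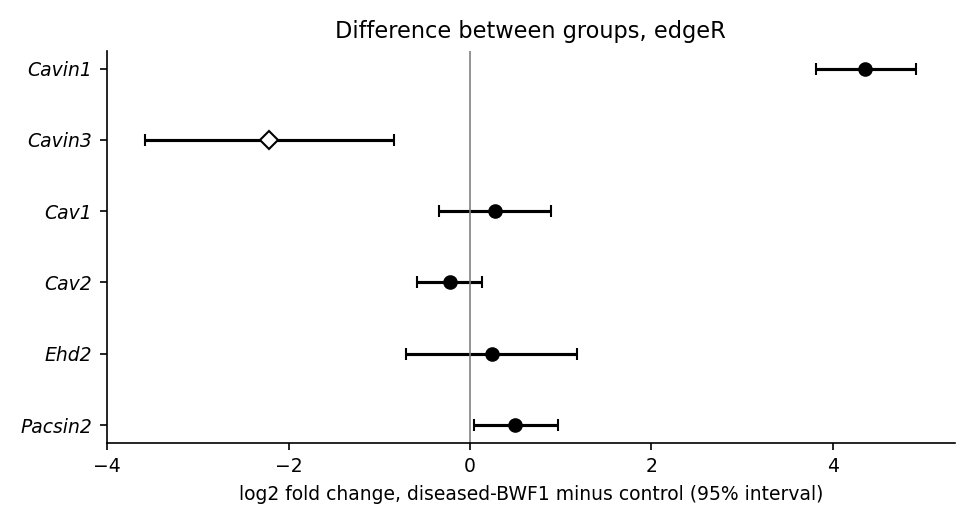
Fitted log2 fold change of 6 genes, diseased-BWF1 minus control, with the approximate 95% interval derived from the edgeR test (n = 3 mice per group). Filled circles are from the fit after the filter on low counts, and the open diamond (Cavin3) is from the fit without it. Cavin1 stands at 4.36, Cavin3 at -2.21, and the other 4 genes lie between -0.22 and 0.50.

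Of the 7 genes, 5 passed the filter on low counts, while Cavin2 and Cavin3 did not. Leaving aside Cavin1, whose difference selected the family, 0 of the other 4 showed a fold change of 1.5 or more with an adjusted p below 0.05. Over all 10505 tested genes, 1.22% passed these thresholds, 0.4% as higher and 0.819% as lower in diseased mice. Before adjustment, 1 of the 4, Pacsin2, had a p under 0.05 by edgeR's quasi-likelihood test, as did 1385 of the 10505 tested genes. DESeq2, which called 2.91% of the genes it tested, also called none of the 4. The difference of Cavin1 was thus not detected in any other gene of the family at this depth.

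The order of the 7 genes by level, in CPM per kilobase of transcript, changed at Cavin1. In control PMs Cav2 was the highest at 22.3 ± 2.25 (SD, n = 3) CPM per kilobase, followed by Pacsin2 at 7.52 ± 1.66, Cav1 at 3.01 ± 0.585, Ehd2 at 2.29 ± 0.785, Cavin1 at 2.23 ± 0.472 and Cavin3 at 1.503 ± 0.0637. The ranges of Cav1, Ehd2 and Cavin1 overlapped in controls, as did those of Ehd2 and Cavin3, so these neighbors in the order did not differ beyond their spread. In diseased PMs Cavin1 was the highest at 45.1 ± 9.26 (SD, n = 3) CPM per kilobase, followed by Cav2 at 18.9 ± 2.68, Pacsin2 at 10.5 ± 1.17, Cav1 at 3.597 ± 0.776, Ehd2 at 2.68 ± 1.19 and Cavin3 at 0.313 ± 0.164. Cav1 and Ehd2 again overlapped, while the ranges of Cavin1, Cav2 and Pacsin2 were apart from each other and from the rest.

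The RNA level of Cavin1 relative to Cav1 differed accordingly, which restates the Cavin1 difference that selected the family. The caveolar proteins were not measured. Per length, the level of Cavin1 relative to Cav1 was 0.708, 0.721 and 0.787 in control mice 1, 2 and 3, and 13.5, 17.9 and 8.15 in diseased mice 1, 2 and 3. With the curated records of Cav1 alone the ratio was 0.708, 1.04 and 1.001 in controls and 23.2, 40.8 and 128 in diseased mice. Cavin1 was thus above Cav1 in every diseased mouse, while its order against Cav1 in controls depended on the records used. The level of Cav2 relative to Cav1 was 9.78, 6.75 and 6.35 in controls and 5.41, 7.16 and 3.85 in diseased mice, which overlapped. Cavin1 gave 5.31%, 6.69% and 7.51% of the counts of all 7 genes in controls, and 58.5%, 60.6% and 53.5% in diseased mice.

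For Cav1 and Pacsin2 the value depended on how counts of a gene's transcript records were combined. Cav1 has 5 records in the files, and its main curated record held 30, 21 and 22 counts in controls and 21, 14 and 3 in diseased mice. The remaining counts of the diseased mice fell on predicted records, with 15, 18 and 44 counts, whereas predicted records held 0, 11 and 6 counts in controls. The log2 fold change of Cav1 was -1.02 with an SE of 0.63 when curated records alone were summed, with an adjusted p of 0.661 by edgeR's quasi-likelihood test, Benjamini-Hochberg adjusted. The direction of Cav1 therefore turned with the records used, and in neither case did it pass the test.

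Pacsin2 has 8 records, of which 7 held counts. Its main curated record held 35, 36 and 32 counts in controls and 89, 90 and 79 in diseased mice, so the values within each group lay close together. With curated records alone the log2 fold change of Pacsin2 was 0.98 with an SE of 0.34 and an adjusted p of 0.417 by edgeR's quasi-likelihood test, Benjamini-Hochberg adjusted, and without control mouse 1 it was 0.32 with all records. Tested on its own, a setting chosen after seeing the data, that record had a log2 fold change of 1.31 with an SE of 0.25 and an adjusted p of 0.248 by edgeR's quasi-likelihood test, Benjamini-Hochberg adjusted. Another, predicted record held 60, 44 and 24 counts in controls and 29, 0 and 14 in diseased mice, and lay the other way apart from an overlap at 24 and 29. How reads were assigned among records that share most of their sequence was not tested. None of the 75-base windows of any of the 7 genes occurs in another gene, so the sums per gene do not draw on reads shared with other genes at that length.

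**Figure D3:**
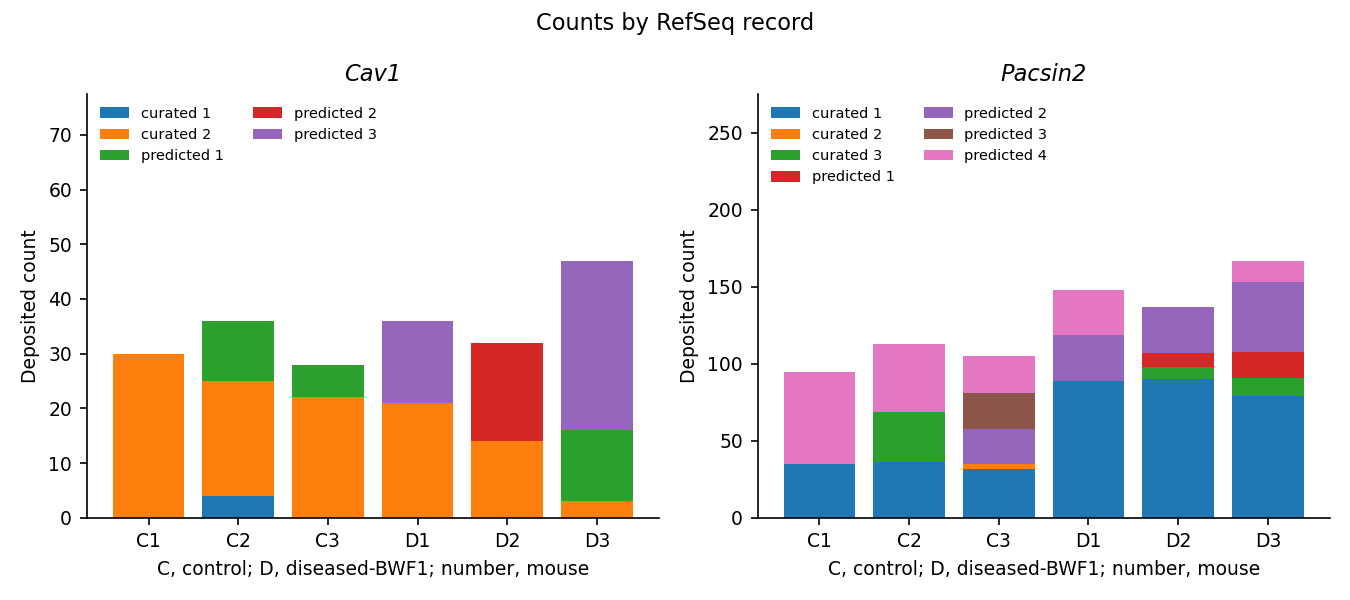
Deposited counts of Cav1 and Pacsin2 in each library, stacked by RefSeq transcript record (curated or predicted), with C for control, D for diseased-BWF1 and the number of the mouse. The main curated record of Cav1 (curated 2) holds 21 to 30 counts in controls and 3 to 21 in diseased mice, while the sums lie between 28 and 47 in all libraries, and the main curated record of Pacsin2 (curated 1) lies at 32 to 36 counts in controls and 79 to 90 in diseased mice.

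Caveolae are plentiful in cells other than macrophages, so marker genes of such cells were read in the same libraries. Of 10 endothelial markers, 4 were at 0 in all libraries, among them Cdh5, which encodes VE-cadherin, and the summed level of the list was 4.15 to 6.71 CPM in controls and 1.23 to 6.86 CPM in diseased mice. Others on the list held counts. Vwf had 13, 10 and 3 counts in controls and 2, 21 and 6 in diseased mice. Pecam1 had 0, 3 and 10 counts in controls and 1, 3 and 2 in diseased mice. Mesothelial markers summed to at most 0.655 CPM in controls and 0.528 CPM in diseased mice, and Msln, which encodes mesothelin, was at 0 in all libraries. On the scale of the floor, Cavin1 had 5.86 to 8.67 CPM in controls and 130 to 193 CPM in diseased mice. Fibroblast markers summed to 0.610 to 2.97 CPM in controls and 1.58 to 2.22 CPM in diseased mice, with Col3a1 at 0 in all libraries. Smooth muscle markers summed to 1.22 to 1.89 CPM in controls and 0 to 0.492 CPM in diseased mice, with Des at 0 in all libraries. The 6 adipocyte markers summed to 22.1 to 26.2 CPM in controls and 26.6 to 30.3 CPM in diseased mice. Nearly all of that level was Lipe, a lipase that other cells also express, and 4 of the 6, Adipoq among them, were at 0 in all libraries.

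Markers of other leukocytes were also low. B cell markers summed to 4.05 to 6.55 CPM in controls and 1.31 to 3.69 CPM in diseased mice, and T cell markers to 0.305 to 1.89 CPM and 0.528 to 2.71 CPM. Neutrophil markers summed to 5.46 to 8.24 CPM in controls and 4.49 to 8.12 CPM in diseased mice, and mast cell markers to at most 0.610 CPM and 0.792 CPM. These sums are given as a description, and no list of monocyte or dendritic cell markers was read. Whether other cells contributed to the Cavin1 counts was not tested. None of the 5 tested macrophage markers passed the thresholds in either direction, where 1.22% of all tested genes passed them. For 2 of the 5 all diseased mice lay below all controls, as for 11.2% of all tested genes. For 0 all lay above, as for 9.59%. The 2 were Adgre1 and Lyz2, with log2 fold changes of -0.17 (SE 0.13) and -0.46 (SE 0.22).

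Genes related to the 7 by sequence or function were read in the same fit. Of the other family members, Pacsin1 was at 0 in all libraries together with Cav3 and Cavin4, and Ehd3 and Pacsin3 had at most 9 counts. Ehd1, an ATPase of endosome recycling, was abundant, with 2246, 1733 and 2273 counts in controls and 2088, 2511 and 2439 in diseased mice, and its log2 fold change was 0.15 with an SE of 0.19. Ehd4, an endosomal relative, had a log2 fold change of -0.40 with an SE of 0.19. Neither passed the thresholds, with adjusted p of 0.788 and 0.435 by edgeR's quasi-likelihood test, Benjamini-Hochberg adjusted.

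Among 18 partners of caveolae and lipid rafts (dynamins, flotillins, Src family kinases and others), 13 were tested, of which 0 were higher and 1 was lower at the thresholds. The median log2 fold change of the 13 was -0.11, beside 0.01 over all tested genes. The gene that fell was Rftn1, which encodes raftlin, a protein of lipid rafts, with 314, 229 and 290 counts in controls and 126, 110 and 112 in diseased mice. All its diseased values lay below all its control values, as for 11.2% of all tested genes. Its log2 fold change was -1.27 with an SE of 0.16 and an adjusted p of 0.0196 by edgeR's quasi-likelihood test, Benjamini-Hochberg adjusted. The call was kept under 5 of 12 alternatives and under 1 of the 6 that left out a mouse, with a highest adjusted p of 0.0860.

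The clathrin coat drives the other main route of endocytosis. Of 21 tested genes on its list, 0 were higher and 1 was lower at the thresholds, beside 0.4% and 0.819% of all tested genes. A log2 fold change below 0 was found for 17 of the 21, where 49.1% of all tested genes had one. The median was -0.13. For 7 of the 21 all diseased mice lay below all controls, as for 11.2% of all tested genes, and for 1 all lay above, as for 9.59%. The gene that fell was Hip1, an adaptor that links clathrin to actin, with 544, 258 and 384 counts in controls and 155, 141 and 154 in diseased mice, so all diseased values were below all control values. Its log2 fold change was -1.38 with an SE of 0.21 and an adjusted p of 0.0364 by edgeR's quasi-likelihood test, Benjamini-Hochberg adjusted. The call was kept under 5 of 12 alternatives and under 1 of the 6 that left out a mouse, with a highest adjusted p of 0.323. Rftn1 and Hip1 were already known as changed in these libraries when the lists were written, so their calls are not independent evidence of a direction.

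Since Cavin1 also acts on RNA polymerase I, genes of the polymerase and its initiation factors were listed as well. Of 14 tested, 0 passed the thresholds in either direction, 11 had a log2 fold change above 0, and the median was 0.16. Over all tested genes 1.22% passed the thresholds, 5343 of 10505 had a log2 fold change above 0, and the median was 0.01.

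**Figure D4:**
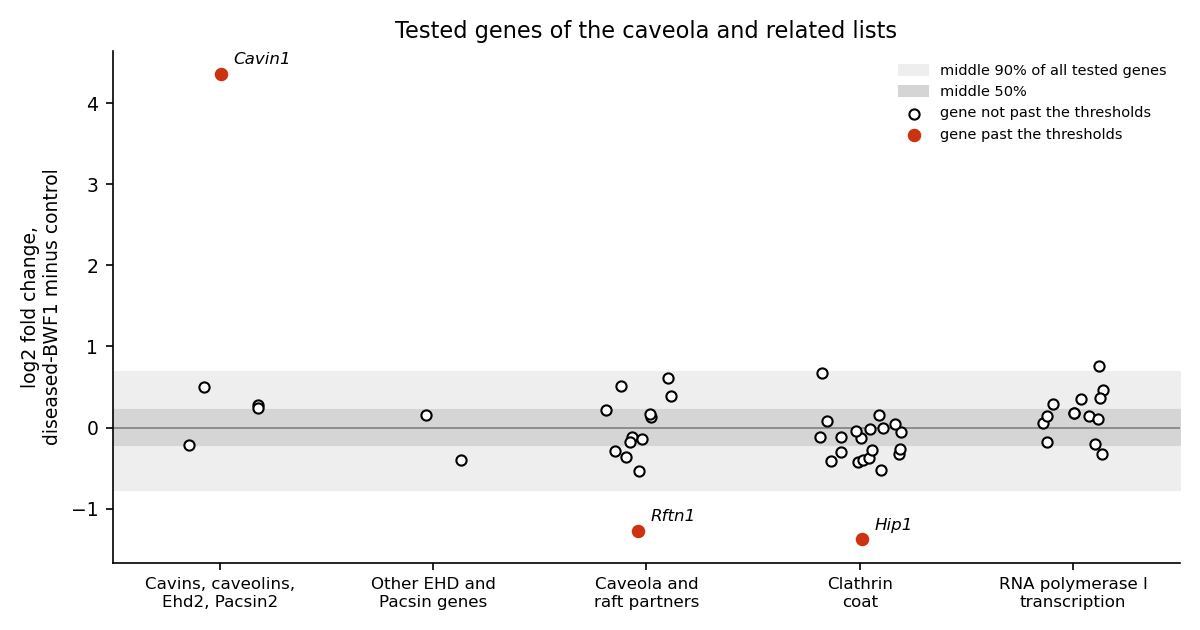
Fitted log2 fold change, diseased-BWF1 minus control, of each tested gene of 5 lists, with the middle 50% and middle 90% of all 10505 tested genes as grey bands. Points are spread sideways for visibility. Filled points are Rftn1 at -1.27 and Hip1 at -1.38, which showed a fold change of 1.5 or more with an adjusted p below 0.05. Cavin1 at 4.36 is also filled, but it selected the family and is shown as a description, without a test.

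Cavin1 lies on mouse chromosome 11 (GRCm38.p6, chr11:100956736-100970617), and no annotated gene overlaps it. The other members are on other chromosomes: Cav2 (chr6:17281185-17289130) and Cav1 (chr6:17306335-17341328) are neighbors, and Cavin2 (chr1:51289126-51302960), Cavin3 (chr7:105480616-105482197), Ehd2 (chr7:15946963-15967535) and Pacsin2 (chr15:83375607-83464610) lie apart. Within 500 kb of Cavin1, 56 other genes are annotated and 32 were tested. Of these 0 were higher and 2 were lower at the thresholds, where 0.4% of all tested genes were higher and 0.819% lower. Of the 32, 16 had a log2 fold change above 0 and 16 below 0, and the median was -0.04.

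The next tested gene towards the start of the chromosome, 16.5 kb away, was the long noncoding RNA Gm46295, with a log2 fold change of 0.09 and an SE of 0.59. It overlaps Stat3, a transcription factor of cytokine signaling, named here after its values were seen, whose log2 fold change was -0.10 with an SE of 0.17. On the other side the next tested gene was Atp6v0a1, a subunit of the proton pump that acidifies lysosomes, 38.8 kb from Cavin1. Its normalized counts were 427 ± 27.7 (SD, n = 3) in controls and 239 ± 25.7 (SD, n = 3) in diseased mice, without overlap, as for 11.2% of all tested genes in that direction. It had a log2 fold change of -0.84 with an SE of 0.13, and its adjusted p was 0.0364 by edgeR's quasi-likelihood test, Benjamini-Hochberg adjusted. Naglu, a lysosomal enzyme that degrades heparan sulfate, lies 99.5 kb from Cavin1 and had 537 ± 38.0 (SD, n = 3) normalized counts in controls and 299 ± 41.9 (SD, n = 3) in diseased mice. Its log2 fold change was -0.85 with an SE of 0.14 and an adjusted p of 0.0455 by edgeR's quasi-likelihood test, Benjamini-Hochberg adjusted. For both genes the call was kept under 4 of 12 alternatives and under none of the 6 that left out a mouse, with highest adjusted p of 0.138 for Atp6v0a1 and 0.168 for Naglu. Aoc2, an amine oxidase 353 kb from Cavin1 and named here after its values were seen, had the highest log2 fold change of the 32, at 1.57 with an SE of 0.35. Its normalized counts were 4.96, 8.23 and 9.19 in controls and 20.8, 24.3 and 21.2 in diseased mice, without overlap, as for 9.59% of all tested genes in that direction. Its adjusted p was 0.101 by edgeR's quasi-likelihood test, Benjamini-Hochberg adjusted. None of the tested genes around Cavin1 was thus called as higher in diseased mice.

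**Figure D5:**
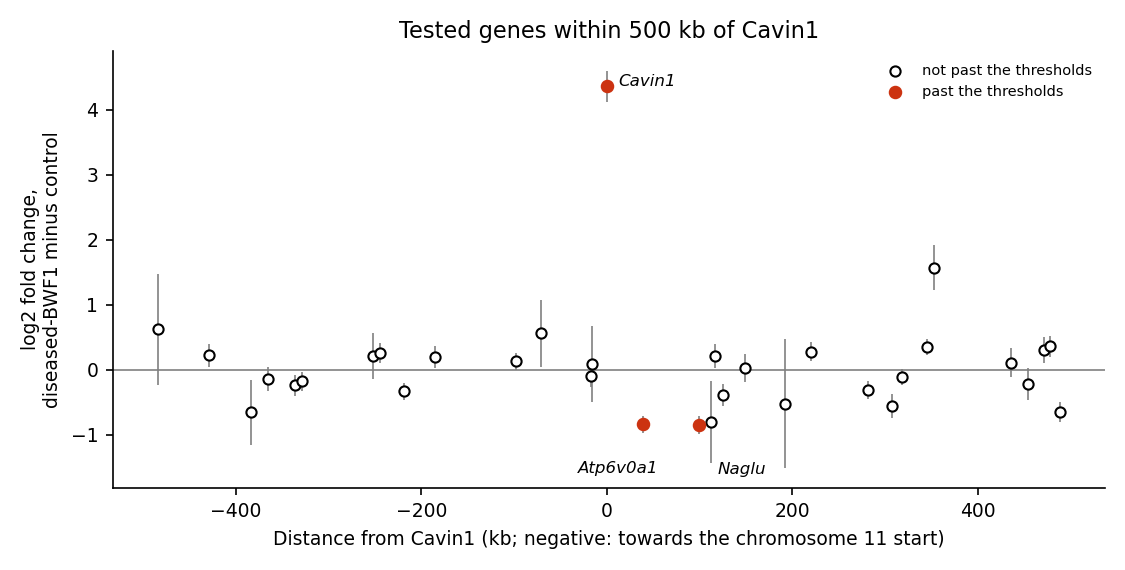
Fitted log2 fold change with SE, diseased-BWF1 minus control, of Cavin1 and the 32 tested genes within 500 kb of it, against distance from Cavin1 in kb. Filled points are Atp6v0a1 at -0.84 and Naglu at -0.85, which passed the thresholds. Cavin1 at 4.36 is also filled, but it selected the family and is shown as a description, without a test. The other 30 genes lie between -0.81 and 1.57.

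The 5 tested genes whose log2 CPM was most like that of Cavin1 over the 6 libraries were Tmem154, Col22a1, Slc1a5, Nt5c1a and Shmt1, with Pearson's r of 0.997, 0.996, 0.994, 0.990 and 0.990. These coefficients describe 6 libraries that fall into 2 groups, so the gap between groups sets most of their size. Tmem154, a membrane protein, had 17.4, 23.7 and 21.8 normalized counts in controls and 267, 458 and 266 in diseased mice. Col22a1, a collagen, was at 0 in all controls and had 95.4, 170 and 72.6 in diseased mice. Like Cavin1, both were highest in diseased mouse 2. Slc1a5, a glutamine transporter, had 115, 143 and 119 normalized counts in controls and 394, 503 and 372 in diseased mice. Nt5c1a, a nucleotidase, had at most 1.03 normalized counts in a control and 15.1 to 17.0 in diseased mice. Shmt1, an enzyme of folate metabolism, had 11.6 to 14.9 in controls and 33.3 to 38.7 in diseased mice. Within the family, the r of each gene with Cavin1 was 0.792 for Pacsin2, 0.493 for Cav1, 0.239 for Ehd2 and -0.576 for Cav2.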

How the data were processed

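RNA from sorted PMs of 3 control and 3 diseased-BWF1 mice had been sequenced as paired reads of stranded mRNA libraries. For every mouse the authors deposited unnormalized whole-number counts on 107193 transcript records of RefSeq. The submitters' processing notes name Salmon 0.8.0, DESeq2 and GRCm38.p6 without their roles, so the deposited values were treated as estimated counts rounded to whole numbers, and edgeR was applied to them as they are. No batch is given in the labels.

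A total of 86466 records matched a RefSeq gene table by accession and were summed per gene, and 20727 were left out. Length was that of the longest coding transcript in GENCODE vM21. Groups were compared in R 4.3.3 with edgeR 4.0.16 (filterByExpr, TMM, glmQLFit and glmQLFTest, Benjamini-Hochberg adjustment over 10505 genes, no covariate). Calls needed a fold change of 1.5 or more with an adjusted p below 0.05. Normalized counts used DESeq2 1.42.0 size factors, 0.871 to 1.21. Log2 CPM had a prior count of 2. The CPM per kilobase and the summed CPM of marker lists were also scaled by TMM, while the floor and the CPM of Cavin1 beside the lists were not. The code was tested on simulated data. No 2 libraries were duplicates, since the smallest chi-square per gene of a pair was 9.56.

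The genes, lists and alternatives were chosen with earlier results of these data known. Named genes were the 7 members, listed genes that passed the thresholds, called or adjacent tested genes within 500 kb of Cavin1, and the 5 genes most correlated with it. Each library is from a separate mouse, per the study's description of its RNA-seq. Alternatives were DESeq2, RLE scaling, no filter on low counts, a block for the replicate number, a minimum of 10 counts in every library, curated records alone, each mouse left out and, chosen after seeing the data, each record tested on its own. In the last of these a member was represented by its record with the most counts. No explanation of any difference was tested. No protein or promoter sequence is printed. A marker of the sort is not reported here.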

Additional observations from a re-analysis of the deposited data

How the results depend on the processing

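The 6 genes other than Cavin1 gave no call under any of the 13 alternatives. Where each record was tested on its own, only the record of a gene with the most counts was read. Cavin1, whose difference selected the family, is described without a test. The number of tested genes called was 128 and depended on the processing: 365 with DESeq2, 259 without the filter on low counts, 84 with at least 10 counts in every library, 16 with curated records alone, and 21 to 51 when a mouse was left out (21 without control mouse 2, 51 without diseased mouse 2). Same-numbered mice are different animals, and their deviations from the group means correlated at 0.117, 0.006 and 0.157. Mice 1 and 3 of each group correlated best with their own number, while mouse 2 of each group did not. Whether libraries of the same number share a batch was not tested, and the labels give no batch. With the replicate block 38 genes were called. The lists of raft partners and clathrin genes had 1 call each, which became 0 with the replicate block, 0 with curated records alone, and 0 to 1 when a mouse was left out. The log2 fold change of Cav1 reversed to -1.02 with curated records and to -0.94 with its main record alone, and that of Ehd2 ranged from -0.06 to 0.55 when a mouse was left out. The adjusted p of Cavin3 was 0.160 to 0.688 over its alternatives, and that of Pacsin2 0.248 to 0.572. The causes were not tested. No scaling moved the median of all genes by over 0.1. No fold change of Cavin2 is given under any alternative, since its counts lay under the floor, and Cavin3 has none with at least 10 counts in every library. At 8 to 12 counts in controls, the size of the Cavin3 difference is limited by depth.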
